A study of Mus musculus with 9 samples.

Results

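The genes described are the phase II conjugation enzymes of mouse liver: the UDP-glucuronosyltransferases (Ugt), the cytosolic sulfotransferases (Sult) and the soluble glutathione S-transferases (Gst). They comprise every gene whose symbol starts with Ugt1, Ugt2, Ugt3, Sult or a Gst class letter (a, m, p, t, o, k or z) and that has a probe set annotated to 1 gene. This gave 45 of the 19938 genes measured, of which 10 are Ugt, 16 Sult and 19 Gst genes. A further 17 symbols of these families, among them Ugt1a1 and other Ugt1a genes, Ugt2a1, Ugt2a2, Gsta1, Gsta2, Gstp2 and Sult2a1, had only probe sets that carry several symbols and are not analysed here.

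RNA of 4 control livers and 5 hepatocellular carcinomas (HCC) was hybridised to Affymetrix Mouse Gene 1.0 ST arrays, 1 array per sample. Control mice were monotransgenic: they carried Rosa26-lsl-NICD, a Cre-dependent allele of the Notch1 intracellular domain, and no Cre, so the allele is silent. Tumour mice were bitransgenic AFP-Cre/Rosa26-lsl-NICD, in which Cre driven by the alpha-fetoprotein promoter, active in immature liver cells, turns the same allele on. Mice of both genotypes had a hybrid 129 x C57BL/6 background, with ages from 6 to 12 months. Tumours were set against livers of other mice, and no group carried AFP-Cre alone. The labels do not tie each array to a separate animal, so p-values measure the spread between these samples.

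Conjugation makes a lipophilic compound water soluble by adding a polar group. Ugt enzymes sit in the endoplasmic reticulum and transfer glucuronic acid from UDP-glucuronic acid to bilirubin, steroids, bile acids and drugs. Sult enzymes work in the cytosol with the sulfate donor PAPS, and Gst enzymes join glutathione to electrophiles or reduce peroxides. The adult hepatocyte is the main site of all 3 reactions, and several Sult and Gst genes differ between male and female mouse liver.

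Values are log2 RMA intensities, given per array in the order control 1 to 4 and HCC 1 to 5, and as mean ± SD with n = 4 control and n = 5 HCC arrays. Changes are HCC minus control on the log2 scale, with the standard error (SE) and the adjusted p of limma (Benjamini-Hochberg over 19938 genes, threshold 0.05). In these bulk samples fewer cells of a type and less RNA per cell cannot be told apart. Hepatocyte markers were present on every array: their summed linear intensity (7 measured markers) ran from 58387 to 61978 in control liver and from 39992 to 58311 in HCC. All 7 had a lower mean in HCC, against 57.5% of all genes. Tat, Cps1 and Fah had every tumour below every control, against 3.86% of all genes. None of the 7 passed the test with all arrays. Without HCC array 5, 2 were lower past the threshold, against 2.79% of all genes. Cholangiocyte markers (6 measured) summed to 549 to 608 in control liver and to 1033 to 3743 in HCC, with Sox9 higher past the threshold and the other 5 not past it. Macrophage, lymphocyte, endothelial and stellate lists had no member past it with all arrays. Without HCC array 5, 2 of 6 endothelial markers were lower past it, against 2.79% of all genes. In that fit 1 of 7 stellate and 2 of 6 cholangiocyte markers were higher past it, against 3.16% of all genes, and no macrophage or lymphocyte marker passed. Every tumour lay below every control for the endothelial Kdr (3.86% of all genes) and above for the stellate Col1a2 (5.63%). The red cell marker measured, Alas2, had a linear intensity of 183 to 277 in control liver and 145 to 1325 in HCC, with the highest value on HCC array 5. The part of these cell types in the results was not tested. Xist, transcribed from the inactive X chromosome, was high on control arrays 1 to 3 and HCC arrays 1 and 2 (10.68 to 11.76) and low on control array 4 and HCC arrays 3, 4 and 5 (4.83 to 5.10). Of the Y chromosome genes, Eif2s3y measured 3.52, 3.86, 3.73 and 9.10 in control liver and 3.50, 3.42, 8.96, 6.05 and 8.96 in HCC. Uty measured 5.02, 4.75, 4.62 and 7.84 in control liver and 4.62, 4.18, 8.26, 5.29 and 7.84 in HCC. Kdm5d measured 5.40, 5.09, 5.75 and 8.65 in control liver and 4.84, 5.46, 6.21, 6.05 and 8.40 in HCC. For each of these genes HCC array 4 lay above the arrays with high Xist and below the others with low Xist. The sex of the mice was not given in the sources used here.

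Across the 45 genes, Gstm5 rose in HCC and no gene fell past the threshold in limma, against 0.858% of all genes higher and 0.16% lower. At an unadjusted p below 0.05, 16 of the 45 (35.6%) were lower and 1 was higher, where all genes gave 9.85% lower and 10.5% higher. All HCC arrays lay below all control arrays for 5 conjugation genes, Gstk1, Gsto1, Gstt1, Gstt3 and Ugt2a3 (11.1%, against 3.86% of all genes). They lay above them for Gstm5 alone (2.22%, against 5.63%). The mean was lower in HCC for 31 of the 45 genes, with a median change of -0.43, against 57.5% of all genes and a median of -0.033. The median of the 45 was -0.21 without HCC array 1, -0.25 without HCC array 4 and -0.26 after quantile normalisation. By family the median change was -0.84 for Ugt, -0.41 for Sult and 0.12 for Gst. The sign of the Gst median turned without control array 1 (-0.058) or without HCC array 2 (-0.029).

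The spread between arrays was larger in HCC for all 10 Ugt genes, 17 of 19 Gst genes and 8 of 16 Sult genes (50%). In all, the SD was larger in HCC for 35 of the 45 genes (77.8%, against 67.9% of all genes), and larger in control liver for the other 10, both Sult3a genes and both Gstp genes among them, with a median SD of 0.54 in HCC and 0.14 in control liver; over all genes the medians were 0.19 and 0.14. On HCC arrays 1, 3 and 4, 30, 27 and 28 of the 45 genes lay below the lowest control value, and on HCC arrays 2 and 5 it was 14 and 11. The corresponding shares were 66.7%, 60% and 62.2% on arrays 1, 3 and 4, where 31.3%, 27.5% and 31.9% of all genes lay below the control range. They were 31.1% on HCC array 2 and 24.4% on HCC array 5, against 35% and 25.2% of all genes. HCC array 5 had 25 of the 45 genes within the control range (55.6%, against 55.4% of all genes), and its hepatocyte marker sum was the highest of the tumours.

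**Figure D1:**
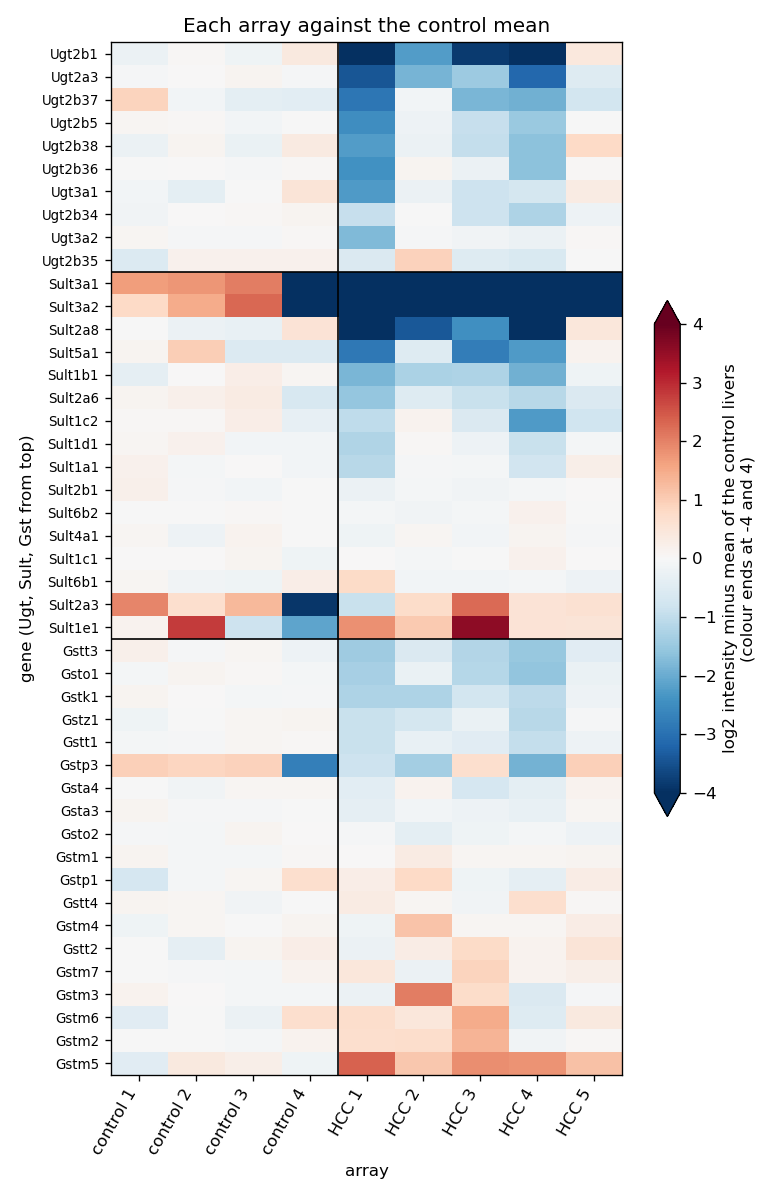
Heat map of the 45 genes (rows, ordered by family and change) on the 9 arrays (columns); colour is log2 intensity minus the mean of the control livers. Blue cells of the Ugt rows are deepest on HCC arrays 1, 3 and 4, and HCC array 5 stays near the control colour in most rows.

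Leaving out HCC array 5 altered the count of calls most. Without it 9 of the 45 genes (20%) were lower past the threshold and Gstm5 was higher, against 2.79% and 3.16% of all genes. The 9 were Gstk1, Gsto1, Gstt1, Gstt3, Gstz1, Sult1b1, Sult2a8, Ugt2a3 and Ugt2b1. In each of them HCC array 5 held the highest tumour value, level with HCC array 2 for Gsto1. Its omission could therefore only make these changes larger. With any other single array left out, none of the 9 was lower past the threshold. On HCC arrays 1 to 4 all values lay below the control range for 11 of the 45 genes (24.4%), against 1556 of all genes (7.8%). In 6 of these 11 (Gsta3, Gstz1, Sult1b1, Sult2a8, Ugt2b1 and Ugt2b5) HCC array 5 did not, against 787 of those 1556. The 6 are 13.3% of the 45 genes and the 787 are 3.95% of all genes. Without control array 4, Sult3a1 and Sult3a2 were lower, against 0.0602% of all genes, and Gstm5 did not pass. That omission leaves only controls with high Xist. With the filter on dim genes, Gstk1 and Gstt3 were lower, against 0.933% of the genes kept. With array weights 5 genes (Gstk1, Gsto1, Gstt3, Sult1b1 and Ugt2a3) were lower, against 1.23% of all genes.

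All 10 Ugt genes had a lower mean in HCC, and none passed the test with all arrays. Ugt2a3, a hepatic and intestinal glucuronosyltransferase, measured 11.97, 12.02, 12.11 and 11.97 in control liver and 8.60, 10.15, 10.57, 8.87 and 11.52 in HCC. Every tumour lay below every control, and the change was -2.08 (SE 0.54, 4.22-fold, adjusted p = 0.0963). Without HCC array 5 it was -2.47 (adjusted p = 0.0180). Ugt2b1, which acts on steroids and drugs, measured 10.78, 11.07, 10.85 and 11.41 in control liver and 5.87, 8.78, 7.20, 6.80 and 11.44 in HCC. Its first 4 tumours were below every control and the fifth was above them, giving a change of -3.01 (SE 0.97, adjusted p = 0.144) and -3.87 without HCC array 5 (adjusted p = 0.00939).

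The other Ugt2b genes had smaller changes. Ugt2b37 measured 7.34 to 8.66 in control liver and 4.87, 7.64, 5.92, 5.83 and 7.01 in HCC (2.82-fold lower, adjusted p = 0.173). Ugt2b5 measured 11.95 to 12.14 in control liver and 9.57, 11.85, 11.15, 10.56 and 12.04 in HCC (-1.03, adjusted p = 0.242). In both, HCC arrays 1 and 4 were the lowest tumours. Ugt2b38 (-0.85), Ugt2b36 (-0.83), Ugt2b34 (-0.65) and Ugt2b35 (-0.17) had adjusted p between 0.181 and 0.801. Without HCC array 1 the change was -0.51 for Ugt2b38, -0.43 for Ugt2b36, -0.66 for Ugt2b5 and -0.061 for Ugt2b35, and with all arrays the 95% interval of Ugt2b35 ran from -0.89 to 0.56. These genes and Ugt2a3 form a tandem cluster on chromosome 5 in RefSeq, and neighbours differed in size of change: Ugt2b34, next to Ugt2b1, had -0.65 against -3.01. Close copies can share probe signal, so single Ugt2b values are uncertain.

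The Ugt3a enzymes, which use other sugar donors, did not pass. Ugt3a1 measured 10.48 ± 0.38 and 9.74 ± 0.97 (-0.75, adjusted p = 0.379). Ugt3a2 measured 11.78 to 11.91 in control liver and 10.09 on HCC array 1, with 11.60 to 11.89 on the other tumours (-0.43, adjusted p = 0.494), and the change was -0.098 without that array.

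**Figure D2:**
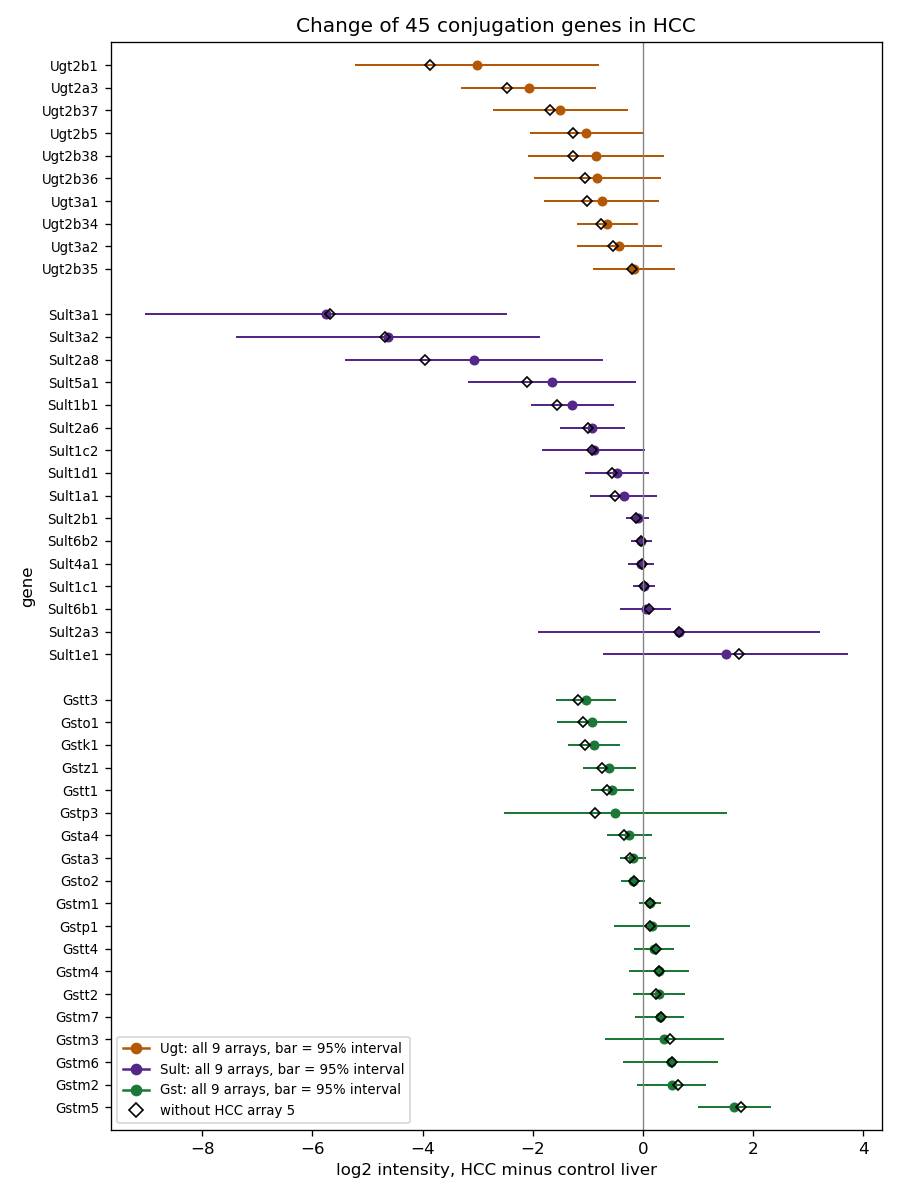
Log2 change in HCC (x axis, HCC minus control) of each of the 45 genes (y axis), with filled points and 95% intervals for all 9 arrays and open diamonds without HCC array 5. All 10 Ugt points lie left of 0, the 7 mu-class Gst points (Gstm1 to Gstm7) lie right of it, and the Sult3a intervals are the widest.

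Among the Sult genes 12 of 16 had a lower mean in HCC and none passed with all arrays. The largest difference was that of Sult3a1, an amine sulfotransferase with female-predominant expression in mouse liver. It measured 11.40, 11.48, 11.78 and 4.25 in control liver and 3.38, 5.53, 3.59, 3.67 and 3.70 in HCC. Control array 4, with low Xist, lay within the range of the tumours, and HCC arrays 1 and 2, with high Xist, held the lowest and the highest tumour value. The change was -5.75 (SE 1.45, adjusted p = 0.0915). A fit that also held the Xist value of each array gave -4.65 (adjusted p = 0.0863). It takes the same change at high and low Xist. At low Xist, however, control array 4 (4.25) lay near HCC arrays 3, 4 and 5 (3.59 to 3.70). Omission of control array 4 gave -7.58 (SE 0.46, adjusted p = 0.00109). That fit sets controls with high Xist only against tumours with high and low Xist, so group and Xist level are partly confounded in it.

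Its neighbour and close copy Sult3a2 was also high on control arrays 1 to 3 (8.89 to 10.40), with control array 4 inside the tumour range of 2.90 to 3.98. Its change was -4.63 (SE 1.22, adjusted p = 0.0992), -3.86 in the fit with Xist (adjusted p = 0.113) and -6.17 on omission of control array 4 (adjusted p = 0.00109). The limits given for Sult3a1 on the fit with Xist and on that omission hold here too. The pair can share probe signal. The tumours and control array 4 lay at the low end of the intensity range, where no detection call was used.

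The Sult2a enzymes sulfate bile acids and hydroxysteroids. Sult2a8, a bile acid sulfotransferase of mouse liver, measured 11.22, 11.02, 10.93 and 11.78 in control liver and 5.55, 7.85, 8.80, 6.94 and 11.71 in HCC. The first 4 tumours lay below every control, and HCC array 5 within the control range. The change was -3.07 (SE 1.03, adjusted p = 0.156), and -3.95 without HCC array 5 (adjusted p = 0.0135). Sult2a3 measured 10.37, 9.10, 9.72 and 4.53 in control liver and 7.54, 9.16, 10.69, 8.97 and 9.03 in HCC (0.65, SE 1.13, adjusted p = 0.776). The sign turned without control array 4 (-0.65). It was lowest on that array, while HCC arrays 3, 4 and 5, which share its low Xist, measured 8.97 to 10.69. Sult2a6 was dim in both groups (5.22 ± 0.44 and 4.30 ± 0.41, adjusted p = 0.107). Sult2b1, the cholesterol sulfotransferase of skin, measured 5.91 ± 0.13 and 5.81 ± 0.091 (adjusted p = 0.527).

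Of the Sult1 genes, which sulfate phenols, catecholamines, thyroid hormones and oestrogens, Sult1b1 had the largest negative change. It measured 8.91, 9.29, 9.53 and 9.37 in control liver and 7.35 to 8.05 in the first 4 tumours, with 9.09 in the fifth (-1.28, SE 0.32, 2.44-fold, adjusted p = 0.0917). Only HCC array 5 reached the control range, and without it the change was -1.56 (adjusted p = 0.00703). Sult1d1 and Sult1e1 lie beside Sult1b1 on chromosome 5. Sult1d1, a catecholamine sulfotransferase, measured 12.38 ± 0.14 and 11.91 ± 0.54 (-0.47, adjusted p = 0.324). Sult1e1, the oestrogen sulfotransferase, had a higher mean in HCC (7.39, 10.06, 6.42 and 5.16 against 9.09, 8.29, 10.83, 7.79 and 7.76). The mean was 2.82-fold higher, with a 95% interval of the log2 change from -0.70 to 3.70 (adjusted p = 0.410). The log2 change was 0.80 without control array 4, 0.98 without HCC array 3 and 2.43 without control array 2. The controls alone spanned 5.16 to 10.06, and the groups overlapped.

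The phenol sulfotransferase Sult1a1 measured 10.81 ± 0.12 and 10.46 ± 0.57 (adjusted p = 0.467). Sult1c2 measured 8.92 ± 0.25 and 8.03 ± 0.88 (adjusted p = 0.251). Sult5a1 measured 8.38, 9.25, 7.72 and 7.72 in the controls and 5.40, 7.75, 5.51, 5.99 and 8.40 in the tumours, of which HCC arrays 2 and 5 were inside the control range. Its change was -1.66 (adjusted p = 0.212). Sult1c1 (0.021, 95% interval -0.16 to 0.20), Sult4a1 (-0.031, -0.25 to 0.18), Sult6b1 (0.053, -0.39 to 0.50) and Sult6b2 (-0.035, -0.21 to 0.14) had the changes nearest to 0, and all but Sult4a1 were under the lower quartile of gene means (5.83) in both groups, as was Sult2a6.

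**Figure D3:**
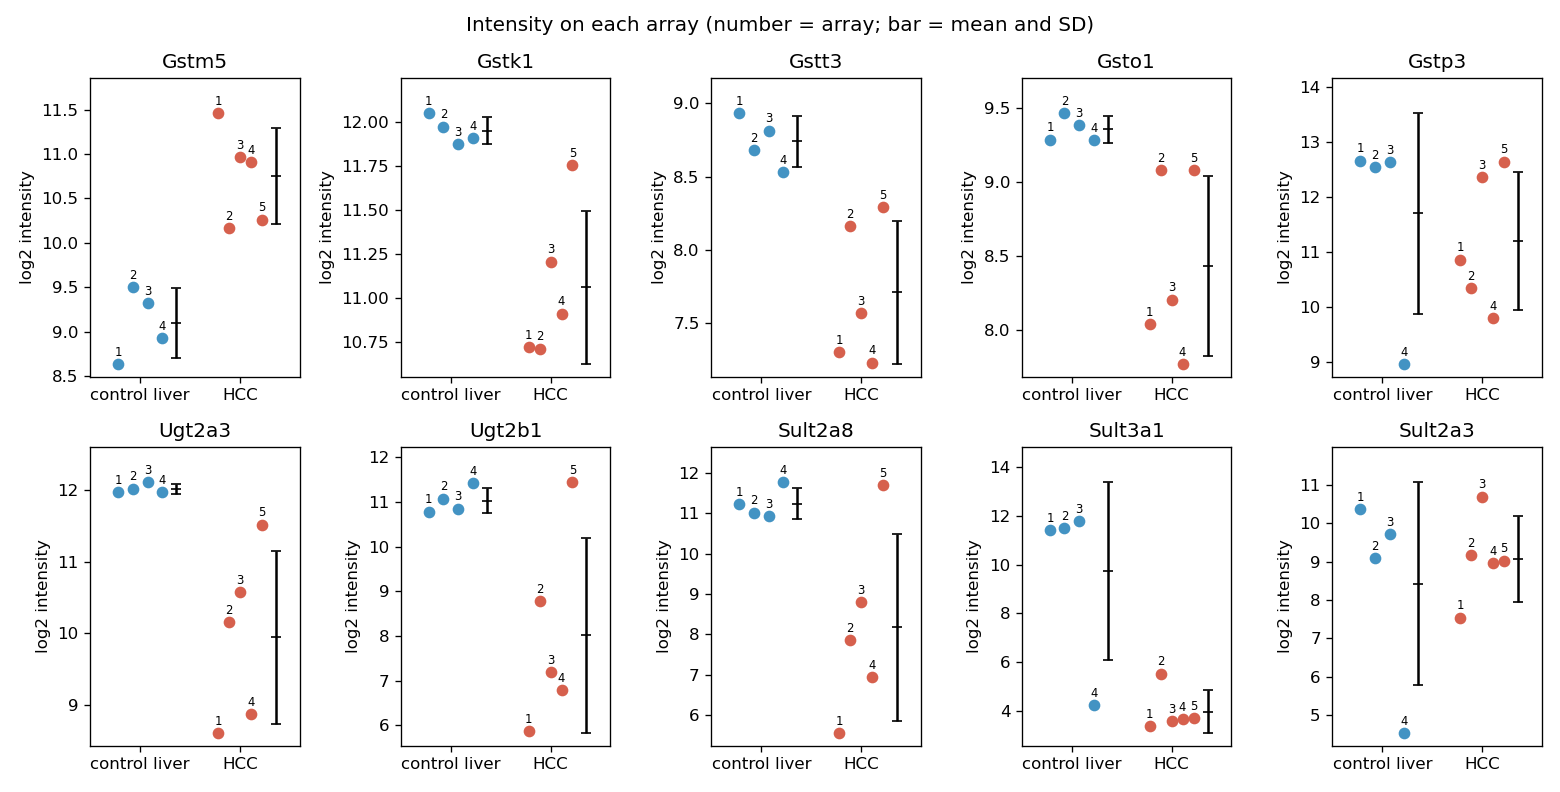
Log2 intensity of 10 genes (y axes) on each control (blue) and HCC (red) array; numbers name the array and bars give mean and SD. The tumours lie above the controls for Gstm5 and below them for Gstk1, Gstt3, Gsto1 and Ugt2a3; HCC array 5 lies at the control level for Ugt2b1 and Sult2a8; control array 4 stands apart for Gstp3, Sult3a1 and Sult2a3.

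Among the Gst genes the mu class and the other classes had means on opposite sides of 0. All 7 mu genes had a higher mean in HCC (median change 0.39) and 9 of the 12 others a lower one (median -0.37); the difference between the classes was not tested. Gstm5, a mu-class transferase, rose. It measured 8.64, 9.50, 9.32 and 8.93 in control liver and 11.46, 10.16, 10.97, 10.91 and 10.26 in HCC. Every tumour lay above every control, with means of 9.10 ± 0.39 and 10.75 ± 0.54 (change 1.66, SE 0.29, 3.15-fold, adjusted p = 0.0416). In the fit with Xist the change was 1.69 (adjusted p = 0.0514). Over the omissions of single arrays it was 1.48 to 1.80, with adjusted p from 0.0157 to 0.138. Gstm5 did not pass when any 1 of the 4 controls was omitted (adjusted p 0.0915 to 0.138), nor on omission of HCC array 3 (0.0839) or 4 (0.0913). Of the 6 cholangiocyte markers Sox9 passed the test in the same comparison, against 0.858% of all genes higher. Sox9, Epcam, Cldn7 and Cftr had every tumour above every control, against 5.63% of all genes, while Krt19 and Krt7 overlapped between the groups. Their part in the result was not tested.

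The other mu genes lie beside Gstm5 on chromosome 3, in the order Gstm5, Gstm7, Gstm6, Gstm3, Gstm2, Gstm1 and Gstm4, and none passed. Gstm2 measured 9.48 to 9.70 in control liver and 10.23, 10.27, 10.92, 9.42 and 9.61 in HCC (0.52, adjusted p = 0.307). Gstm3 measured 10.87 to 11.11 in control liver and 10.72, 13.02, 11.70, 10.39 and 10.92 in HCC (0.39, adjusted p = 0.668), so HCC array 2 was high and HCC arrays 1 and 4 were under the controls. A second Gstm3 probe set gave 9.63 to 10.11 in control liver and 9.57, 12.14, 10.99, 9.13 and 9.67 in HCC, with the same tumours high and low. Without HCC array 2 the Gstm3 change was -0.029, and 6 of the 7 mu genes then had a higher mean. Gstm1 measured 12.84 ± 0.094 and 12.96 ± 0.11 (0.12, 95% interval -0.058 to 0.31). Gstm4, Gstm6 and Gstm7 had changes of 0.29, 0.50 and 0.30 (adjusted p 0.397 to 0.515). The mu genes are similar in sequence and their probe sets may share signal.

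RefSeq (GRCm38.p6) gives a promoter window for 41 of the 45 genes. The 250 bases before the start of Gstm5 are shown because it is the gene that rose, those of Gsta3 because it is the other gene shown with the antioxidant response element and did not pass, and those of Ugt2a3 and Ugt2b1 as the Ugt genes with the largest negative changes. Capitals mark exact matches, on either strand, to the antioxidant response element of NRF2 (TGACNNNGC), the dioxin response core of the aryl hydrocarbon receptor (GCGTG) or the left arm of the HNF1 site (GTTAAT).
Gstm5, chr3:107895604-107895853, plus strand: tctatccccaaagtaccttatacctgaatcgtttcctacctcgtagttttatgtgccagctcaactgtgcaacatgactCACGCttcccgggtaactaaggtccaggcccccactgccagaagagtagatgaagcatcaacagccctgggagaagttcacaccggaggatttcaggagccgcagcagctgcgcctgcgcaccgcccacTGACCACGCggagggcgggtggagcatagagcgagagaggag
Gsta3, chr1:21240335-21240584, plus strand: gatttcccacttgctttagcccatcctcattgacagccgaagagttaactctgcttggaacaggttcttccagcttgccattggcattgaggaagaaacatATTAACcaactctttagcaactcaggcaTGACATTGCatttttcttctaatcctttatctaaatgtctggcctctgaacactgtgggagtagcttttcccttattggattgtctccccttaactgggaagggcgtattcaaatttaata
Ugt2a3, chr5:87337196-87337445, minus strand: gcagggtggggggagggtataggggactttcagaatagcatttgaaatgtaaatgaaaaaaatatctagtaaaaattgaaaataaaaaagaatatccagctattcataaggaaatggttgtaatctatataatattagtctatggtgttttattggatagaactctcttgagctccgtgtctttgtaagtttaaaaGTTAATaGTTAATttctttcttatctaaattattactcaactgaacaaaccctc
Ugt2b1, chr5:86926504-86926753, minus strand: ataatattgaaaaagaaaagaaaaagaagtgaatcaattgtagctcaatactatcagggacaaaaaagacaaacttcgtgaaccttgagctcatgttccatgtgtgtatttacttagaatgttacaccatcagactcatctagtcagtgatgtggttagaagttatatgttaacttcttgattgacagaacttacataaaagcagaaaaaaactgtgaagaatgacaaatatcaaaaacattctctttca
Gstm5 has the antioxidant element at 42 to 34 bases before the start, where it overlaps a dioxin core on the opposite strand (38 to 34 bases), and another dioxin core further out. Ugt2a3 has the HNF1 arm at 54 to 49 and at 47 to 42 bases, and Ugt2b1 has none of the motifs in this window. The antioxidant element was found in 3 of the 52 windows of these genes (5.77%; Gsta3, Gstm5 and Gstm7) and in 10.2% of all 32851 windows. The dioxin core was in 15.4% against 28.2%, the HNF1 arm in 15.4% against 6.43%, and the longer HNF1 site in 0 of 52 windows against 0.134%. A match describes the letters and is not a measured site.

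Outside the mu class, 4 Gst genes had every tumour below every control, and none passed with all arrays. Gstk1, the mitochondrial and peroxisomal kappa enzyme, measured 12.05, 11.97, 11.87 and 11.91 in control liver and 10.73, 10.71, 11.21, 10.91 and 11.75 in HCC (-0.89, SE 0.20, 1.85-fold, adjusted p = 0.0695). Gstt3, of the theta class that handles small halogenated compounds, measured 8.93, 8.68, 8.81 and 8.53 in control liver and 7.30, 8.16, 7.57, 7.23 and 8.29 in HCC (-1.03, SE 0.23, 2.04-fold, adjusted p = 0.0689). In both genes HCC array 5 was the tumour nearest to the controls. Without it the changes were -1.06 (adjusted p = 0.00434) and -1.18 (adjusted p = 0.0195). Over the other omissions of single arrays adjusted p was 0.102 to 0.183 for Gstk1 and 0.0749 to 0.190 for Gstt3.

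Gsto1, an omega enzyme that reduces dehydroascorbate, measured 9.28 to 9.47 in control liver and 8.04, 9.08, 8.21, 7.77 and 9.08 in HCC (-0.92, SE 0.28, adjusted p = 0.124). Gstt1, another theta enzyme, measured 10.60 to 10.73 in control liver and 9.77, 10.38, 10.21, 9.71 and 10.46 in HCC (-0.56, SE 0.16, adjusted p = 0.123). HCC arrays 1 and 4 were the lowest in both, and each passed without HCC array 5 (adjusted p = 0.0444 and 0.0495). Gstz1, the maleylacetoacetate isomerase of tyrosine breakdown, measured 10.97 ± 0.13 and 10.36 ± 0.44 (-0.61, adjusted p = 0.156), and passed on omission of HCC array 5 (-0.75, adjusted p = 0.0439).

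The alpha enzymes, which reduce lipid peroxides and conjugate their products, had the smaller differences. Gsta3 measured 13.17 ± 0.079 and 12.99 ± 0.17 (-0.18, 95% interval -0.40 to 0.038), and Gsta4 12.50 ± 0.10 and 12.26 ± 0.36 (-0.25, -0.63 to 0.14). Gstp1, of the pi class that is higher in male mouse liver, measured 11.93, 12.53, 12.67 and 13.29 in control liver and 12.86, 13.40, 12.43, 12.26 and 12.91 in HCC (0.17, 95% interval -0.50 to 0.83). Its highest control was array 4, with low Xist. Gstp3 went the other way on that array, with 12.67, 12.55, 12.64 and 8.97 in control liver and 10.87, 10.35, 12.37, 9.80 and 12.65 in HCC (-0.50, SE 0.89, adjusted p = 0.780). Over the omissions of single arrays it ran from -1.41, without control array 4, to -0.15. Gstt2 (0.29), Gstt4 (0.20) and Gsto2 (-0.18) had adjusted p between 0.292 and 0.487.

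**Figure D4:**
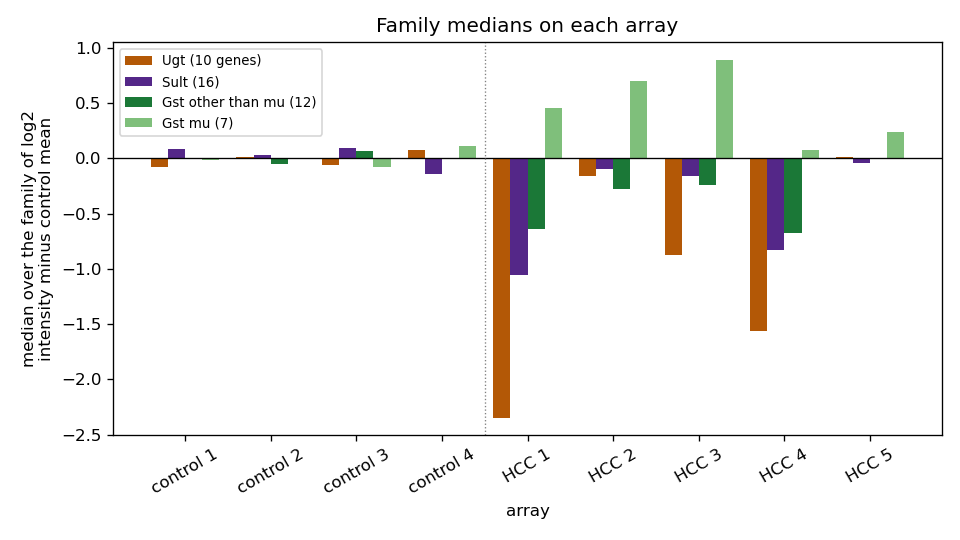
Bars give, for each array (x axis), the median over a family of log2 intensity minus the control mean (y axis). The Ugt median was -2.35, -0.88 and -1.57 on HCC arrays 1, 3 and 4 and -0.16 and 0.012 on HCC arrays 2 and 5. The Gst mu median was above 0 on all 5 tumours (0.076 to 0.89), and HCC array 4 (0.076) lay under control array 4 (0.11).

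Of 13 genes of cofactor supply and turnover 11 were lower in mean, against 57.5% of all genes. None passed, and the median change was -0.39. Cth, the cystathionine lyase that makes cysteine for glutathione, measured 11.67 ± 0.33 and 10.32 ± 0.52 (adjusted p = 0.0531), and Gnmt, the glycine methyltransferase, 12.79 ± 0.040 and 12.06 ± 0.32 (adjusted p = 0.0591). Papss2, which makes the sulfate donor PAPS, measured 11.66 ± 0.27 and 10.58 ± 0.87 (adjusted p = 0.185), and Ugdh, which makes UDP-glucuronic acid, 11.07 ± 0.069 and 10.67 ± 0.49 (adjusted p = 0.350). Papss1 and Gss had a higher mean in HCC. Papss1 measured 6.53 ± 0.19 and 7.05 ± 0.43 (adjusted p = 0.215). Gss measured 9.37 ± 0.17 and 9.95 ± 0.30 (adjusted p = 0.104), with every tumour above every control, against 5.63% of all genes. Every tumour lay below every control for Cth, Gnmt, Ugp2 and Mat1a, against 3.86% of all genes. Without HCC array 5, 4 of the 13 cofactor genes were lower past the threshold, against 2.79% of all genes. In the lists below it was 1 of 17 other conjugating and related enzymes, 2 of 9 transporters, 2 of 14 regulators and 4 of 8 P450 genes. No NRF2 target or deconjugating enzyme was lower past it. Of the 17, 1 was higher past it, against 3.16% of all genes, and no gene of the other pathway lists was.

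Of 17 other conjugating and related enzymes, the epoxide hydrolases Ephx1 and Ephx2 among them, 10 were lower in mean, against 57.5% of all genes. None was past the threshold (median -0.27). The thiopurine methyltransferase Tpmt measured 10.04 ± 0.30 and 11.24 ± 0.52 (adjusted p = 0.0645), and the nicotinamide methyltransferase Nnmt 10.36 ± 1.01 and 8.60 ± 0.99 (adjusted p = 0.153). Every tumour lay above every control for Tpmt and Ugt8a, against 5.63% of all genes. Of 9 transporters of conjugates and anions 8 had a lower mean in HCC, against 57.5% of all genes (median -0.28, none past the threshold). The uptake carrier Slco2b1 measured 8.72 ± 0.094 and 7.05 ± 0.77 (adjusted p = 0.0584) and Abcc6 7.65 ± 0.17 and 7.08 ± 0.37 (adjusted p = 0.142). Every tumour lay below every control for Slco1b2 and Slco2b1, against 3.86% of all genes. Deconjugating enzymes (4 measured) had a median of 0.099 and none passed, with Arsb at 8.20 ± 0.28 and 8.45 ± 0.19 and Sumf1 at 7.40 ± 0.053 and 7.28 ± 0.21.

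Among 14 regulators of these genes 13 were lower in mean, against 57.5% of all genes, and none was past the threshold (median -0.35). The oestrogen receptor Esr1 measured 9.43 ± 0.42 and 8.53 ± 0.36 (adjusted p = 0.0961) and the fatty acid receptor Ppara 10.30 ± 0.28 and 9.13 ± 0.76 (adjusted p = 0.130). Nr1i3, which encodes the receptor CAR, measured 11.77, 10.79, 10.82 and 10.79 in the controls and 5.82, 9.84, 7.24, 7.39 and 10.49 in the tumours (-2.89, SE 0.88, adjusted p = 0.130). Every tumour lay below every control for Nr1i3 and Ppara, against 3.86% of all genes. The regulator with a positive change was Nfe2l2, which encodes NRF2 (10.24 ± 0.26 and 10.67 ± 0.25, adjusted p = 0.184). Of 9 other NRF2 targets none passed, 4 had a negative change and the median was 0.055, with Aox1 at 9.04 ± 0.31 and 8.35 ± 0.58 (adjusted p = 0.230) and the cystine carrier Slc7a11 at 4.69 ± 0.22 and 5.10 ± 0.37 (adjusted p = 0.257). Gpx2 had the largest change of these targets (1.89, SE 0.91, adjusted p = 0.277). It measured 5.81 to 6.23 in control liver and 8.78, 11.16, 6.46, 6.32 and 6.94 in HCC. Every tumour lay above every control, against 5.63% of all genes. Of 8 phase I P450 genes all had a negative change (median -2.72), against 57.5% of all genes. Every tumour lay below every control for Cyp1a2 and Cyp2b9, against 3.86% of all genes. Cyp2b9 alone fell past the threshold (12.27 ± 0.73 to 6.59 ± 2.04, adjusted p = 0.0382), against 0.16% of all genes. Its highest tumour was HCC array 5, at 9.68. Its lowest control was array 4, with low Xist, at 11.21 (12.38 to 12.79 on the other controls).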

How the data were processed

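The authors deposited linear intensities per probe set, made with RMA per the submitters' processing notes and with GenePattern and R per the labels of the series. Their software versions are not given in the sources used here. Intensities ran from 3.91 to 21468, with array medians of 91.5 to 101, and were taken to log2 with no pseudocount or filter. RMA quantile-normalises arrays, so changes are relative to the other genes of an array. Symbols came from the platform annotation: 21789 probe sets had 1 symbol, 1621 several and 12102 none. For each gene the probe set with the highest mean was kept (19938 genes; of these genes only Gstm3 had more than 1 probe set).

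HCC and control were compared with limma 3.58.1 in R 4.3.3 (lmFit, eBayes, group as the only term, two-sided) over all genes, and the code was tested on simulated data. Tables and plots used Python 3.11.15, pandas 2.3.3 and matplotlib 3.10.9. Members and lists were chosen with earlier results of these data known, so lists are described by counts and medians with no list test. The genes named with values were those past the threshold, the 6 largest and 2 smallest changes per family, and from each pathway list up to 3 genes past the threshold or else the 2 with the smallest adjusted p. All other members are given by choice after seeing the values, as are Papss1, Papss2, Gss, Ugdh, Nr1i3, Nfe2l2 and Gpx2. Alternatives comprised a filter on dim genes, further scaling, other moderation, array weights, averaged probe sets, the replicate block, the Xist covariate and each array left out. The number of arrays limits the precision.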

Additional observations from a re-analysis of the deposited data

Results flagged for a closer look

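For each of the 45 genes the most extreme array of each group was set against the others by Dixon's ratio, which flags about 1 in 20 groups by chance; 7 of 90 groups were flagged. Control array 4 stood below the other controls for Sult3a1 (4.25 against 11.40 to 11.78) and Gstp3 (8.97 against 12.55 to 12.67), and this array has low Xist. Control array 1 stood above the others for Gsta3 (13.28 against 13.12 to 13.14) and below them for Ugt2b35 (7.31 against 8.02 to 8.04). HCC array 1 stood above the other tumours for Sult6b1 (4.86 against 3.90 to 4.04) and below them for Ugt3a2 (10.09 against 11.60 to 11.89). HCC array 2 stood above them for Sult3a1 (5.53 against 3.38 to 3.70).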

How the results depend on the processing

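The count of genes higher past the threshold (Gstm5, 1 gene) was 0 with the replicate block and 0 with the Xist covariate, and 0 to 1 over the omissions of single arrays. The count of genes lower (0; 16 at an unadjusted p below 0.05 in limma) was 2 with the filter on dim genes, 5 with array weights, 6 with the replicate block (220 of 19938 genes lower) and 0 to 9 over the omissions of single arrays, the 9 without HCC array 5. Gstm5 had adjusted p = 0.0684 with the replicate block. The block leaves HCC array 5 without weight, since no control shares its number. The numbers do not pair the samples: deviations of same-numbered arrays correlated at -0.083 to 0.324, and every setting with the block is given here alone. Over the omissions the median change ran from -0.55 to -0.21 for the 45 genes and from -1.16 to -0.54 for Ugt. It ran from -0.58 to -0.22 for Sult and from -0.058 to 0.14 for Gst (below 0 without control array 1 or HCC array 2). The other alternatives moved each family median by less than its spread between arrays. They gave -0.55 (replicate block) to -0.26 (quantile normalisation) for the 45 genes, for which no such spread was taken. The change of 27 of the 45 genes moved by over 1.5 times on omission of 1 array, and that of 6 turned sign (Gstm3, Gstp1, Sult1c1, Sult2a3, Sult4a1 and Sult6b1, none past the threshold). All 10 Ugt genes kept a negative change under every alternative run. Among named genes 24 gene-by-setting results passed that did not with all arrays, 8 lost the call (all of Gstm5), and none past the threshold turned sign. Probe sets near background have no detection call here, and shared signal between copies of a family cannot be separated.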
